A study of Mus musculus with 12 samples.

Results

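Of the places where the NF-kB subunit RelA was found in wild-type mouse macrophages 3 h after lipopolysaccharide (LPS), 1358 had no listed Ikaros site at any time sampled. These regions are described here, and without Ikaros means below that none was listed, not that none was bound. Members were chosen by the deposited hotspot calls: they are hotspots, regions enriched for sequence tags, of the wild-type RelA library at 3 h that overlap no hotspot of wild-type input DNA and none of wild-type Ikaros at 0, 3 or 8 h by 1 bp or more. The RelA list held 5017 hotspots as deposited and 4972 after 45 that met input were removed, so the 1358 were 27.3% of them (95% exact Clopper-Pearson interval 26.1 to 28.6). The remaining 3614 overlapped Ikaros at 1 or more of the 3 times and serve as the comparison.

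The cells were bone-marrow-derived macrophages, primary macrophages grown from marrow, of C57BL/6J mice. RelA was precipitated with a rabbit polyclonal antibody (ab7970) from cells labelled wild type after 0, 3 and 8 h of LPS, and at the same 3 times from cells labelled as littermate controls, whose own genotype the labels do not give. Ikaros was precipitated with a goat polyclonal antibody (M-20) at those times from wild-type cells alone, and input DNA came from untreated wild-type cells. Each of these 10 groups is a single library, which leaves no replicate error and no p-value between conditions. Intervals are at the 95% level and cover counting error over hotspots only, and neighbouring hotspots are not independent. Read totals are unknown, and 6 file names carry a time beside or in place of the labelled one, so the times rest on the labels.

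RelA is the transactivating partner in the most common NF-kB dimer. In resting macrophages it is held in the cytoplasm by inhibitor proteins of the IkB family. LPS, sensed by Toll-like receptor 4, leads to the breakdown of these inhibitors, RelA enters the nucleus and binds kB sites in promoters and enhancers, and the newly made inhibitors later return it to the cytoplasm. Ikaros, encoded by Ikzf1, is a zinc finger DNA-binding protein known from lymphocyte development, where it works with the NuRD chromatin remodelling complex. Its short recognition core resembles one arm of many kB sites, so both proteins can be drawn to related DNA.

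The regions without Ikaros were the weaker and narrower part of the RelA 3 h list. Their z score, the authors' measure of enrichment of a hotspot, had a median of 11.0 (quartiles 9.65 and 13.7), against 13.9 (10.8 and 20.7) for regions with Ikaros. Their highest tag density, in deposited units whose scale is not stated, had a median of 15.8 against 20.0, and their width a median of 444 bp against 584 bp. These values come from the list that chose the members and carry no test.

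**Figure D1:**
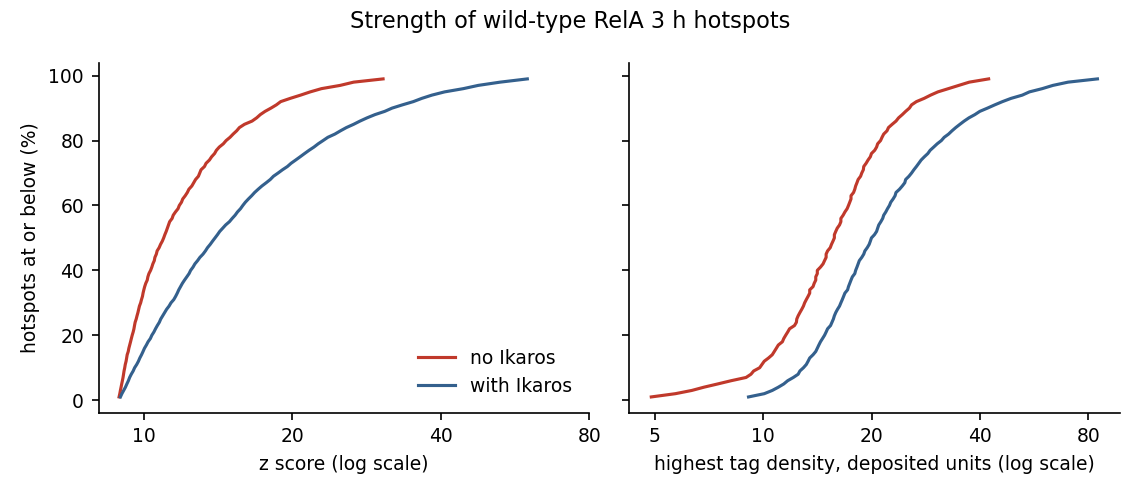
Cumulative share of wild-type RelA 3 h hotspots (percentiles 1 to 99) against z score (left) and highest tag density (right), for the 1358 hotspots without Ikaros and the 3614 with it; x axes are logarithmic. The curve without Ikaros lies to the left in both panels, with medians of 11.0 against 13.9 for z and 15.8 against 20.0 for density.

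Strong RelA regions without Ikaros were few. The 36 hotspots of highest z score all carried Ikaros, and the first member ranked 37th. Only 1 member was among the 100 strongest hotspots and 20 were among the 500 strongest. The share without Ikaros was 45.1% (42.0 to 48.3) in the weakest quintile of z score and 8.34% (6.70 to 10.2) in the strongest. At the other end, all 23 hotspots with a highest density below 5 lacked Ikaros, and the lowest density of any hotspot with Ikaros was 5.71. Of these 23, 8 lay on the X chromosome, and their median width was 251 bp, the shortest in the list.

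The 10 strongest members were listed more often than members as a whole. Of the 10, 9 were listed in wild type at 8 h, 8 in the littermate library at 3 h, 4 in that at 8 h, 3 in that at 0 h and none in wild type at 0 h. Over all 4972 RelA 3 h hotspots the shares in these libraries were 31.3%, 34.4%, 17.1%, 3.58% and 0.744%, and over all members 16.1%, 17.5%, 6.70%, 1.40% and 0.147%. In the highest of 10 classes of z score, regions with Ikaros stood at 86.8% in wild type at 8 h and, in littermates, at 91.8% for 3 h and 70.7% for 8 h. At 0 h regions with Ikaros in that class stood at 16.9% in littermates and 7.11% in wild type. Coordinates are on mm9 and as deposited. No gene is assigned, since the gene table used here is of another build.

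The strongest, chr7:19861875-19862738, was a sustained region. Its z score was 59.9 in wild type at 3 h and 46.5 at 8 h, with highest densities of 84.1 and 80.8, and it was absent from the wild-type 0 h list. In littermates, densities of 32.0, 51.3 and 43.1 were reached at 0, 3 and 8 h. It was thus listed in 5 of the 6 RelA libraries, and it ranked 44th by density among 1878 hotspots at 8 h in wild type and 65th among 9999 at 3 h in littermates. The nearest Ikaros hotspot, of 8 h, began 4340 bp away.

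The second, chr10:39817873-39818908, lay 141 bp from an Ikaros hotspot of 8 h and 84 bp from another RelA hotspot. Its highest density in wild type was 52.2 at 3 h and 78.7 at 8 h, and in littermates 33.3 at 3 h and 41.0 at 8 h. It was in neither 0 h list. By rank in density it stood 48th at 8 h in wild type and 253rd at 3 h in littermates.

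Of the next, chr16:25017012-25017789 had densities of 60.1 at 3 h and 71.6 at 8 h in wild type and 30.6 at 3 h in littermates, with no hotspot in littermates at 8 h. Region chr10:87835087-87835859 had 65.0 and 44.7 in wild type at 3 and 8 h, and 24.3, 41.5 and 34.8 in littermates at 0, 3 and 8 h. Region chr5:123154325-123155106 had 47.8 and 41.3 in wild type, and 35.0, 35.1 and 30.1 in littermates. These last 2 were, with the first, the members among the 10 that littermate macrophages listed before LPS.

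Some strong members were seen in 1 series only. Region chr11:72242582-72243426 had a density of 37.9 at 3 h and 16.3 at 8 h in wild type, where it ranked 1717th of 1878, and was in no littermate list. Region chr16:55821984-55822919, 908 bp from an Ikaros hotspot of 3 h, had 47.3 and 35.2 and was likewise absent from the littermate lists. The others of the 10 were chr15:57865481-57866287 (densities 51.9 and 33.4 in wild type, 15.8 in littermates at 3 h), chr3:53266176-53266969 (28.7 and 24.1, and 12.9) and chr2:75558416-75559323 (50.0 in wild type and 27.0 in littermates, both at 3 h). The last was the only one of the 10 listed at 8 h in neither series.

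Most members were seen once. Of the 1358, 1018 were in none of the 5 other RelA libraries, 75.0% (72.6 to 77.2), against 50.2% (48.6 to 51.9) of regions with Ikaros. Over all 4972 RelA 3 h hotspots, 43.0% were in at least 1 other RelA library, and among members 340 were, 25.0% (22.8 to 27.4), which is 24.7 percentage points (21.9 to 27.5, Newcombe interval) fewer than with Ikaros. Among the 83 members in the strongest z quintile 66 were listed elsewhere, 79.5%, and 17 were not, against 802 of 912 regions with Ikaros listed, 87.9%.

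**Figure D2:**
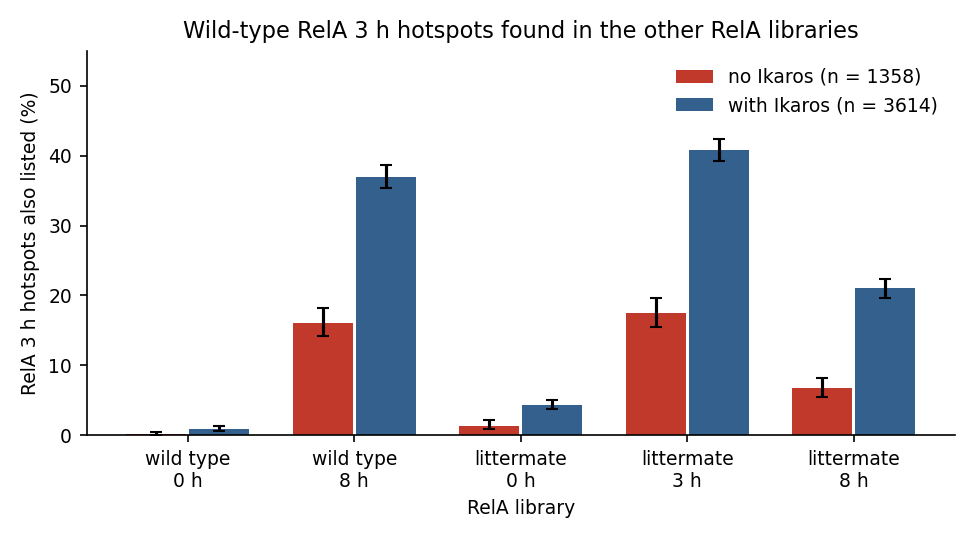
Share of wild-type RelA 3 h hotspots that overlap a hotspot of each of the 5 other RelA libraries (percent), without and with Ikaros; bars are shares and whiskers 95% exact intervals. In each library the share is lower without Ikaros, for example 16.1% against 37.0% in wild type at 8 h and 17.5% against 40.8% in littermates at 3 h.

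RelA was still listed at 8 h in wild type at 219 of the members, 16.1% (14.2 to 18.2), and at 1337 regions with Ikaros, 37.0% (35.4 to 38.6); over all RelA 3 h hotspots the share was 31.3%. The difference was -20.9 percentage points (-23.3 to -18.3). Seen from 8 h, members accounted for 219 of 1878 hotspots, 11.7%. At 3 h in littermates 237 members were listed, 17.5% (15.5 to 19.6), against 40.8% (39.2 to 42.4) with Ikaros and 34.4% of all. They met 236 of the 9999 littermate hotspots, 2.36%. In littermates 91 members were listed at 8 h, 6.70% (5.43 to 8.16), against 21.0% (19.7 to 22.4) and 17.1% of all, and these were 1.74% of the littermate list. The littermate lists were of another make-up, with median highest densities of 4.11 to 4.56 over all their hotspots, against 18.5 and 25.5 in wild type at 3 and 8 h, and most littermate hotspots at 3 h, 6830, were below a density of 5. With hotspots of density 10 or more in every RelA list, members were listed at 16.4% in littermates at 3 h, with a difference of -23.4 points (-26.0 to -20.7), and at 6.89% at 8 h, with -14.2 (-16.1 to -12.2). The lowest z score listed was 8.88 in wild type at 3 h but 10.9 at 8 h, and 48.8% of members stood below the latter, against 25.7% of regions with Ikaros.

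Members found again were the stronger ones. The 219 listed at 8 h in wild type had a median z score of 15.4 at 3 h and the 1139 others 10.5. Their median highest density was 21.4 at 3 h and 23.8 at 8 h, in units of unstated scale. By density these members ranked at the 62.4 percentile of the wild-type 3 h list and the 43.8 percentile of the 8 h list. For regions with Ikaros listed at 8 h these percentiles were 80.6 and 58.3. The 237 members in the littermate 3 h list had a median highest density of 20.4 in wild type at 3 h, against 15.1 for the others. Within the littermate list they ranked at the 86.7th percentile of density but at the 43.5th of z score. Regions with Ikaros listed there ranked at the 91.3 percentile of density and the 57.4 percentile of z score. Across the 237 members the densities of both series had a Spearman rho of 0.586, and across the 219 those at 3 and 8 h had 0.555. For regions with Ikaros the values were 0.622 and 0.635. The points share their library and the choice of listed regions, so these are descriptions. The centres of the paired hotspots lay a median of 50.5 bp and 36.5 bp apart, against 42.5 bp and 36.5 bp with Ikaros.

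Listing in 1 further library went with listing in the others, in members and in regions with Ikaros. Of the 237 members in the littermate 3 h list, 123 were also in wild type at 8 h, 51.9% (45.3 to 58.4), against 8.56% (6.99 to 10.4) of the 1121 outside it. With Ikaros these shares were 71.1% (68.7 to 73.4) and 13.5%. Of the 91 in the littermate 8 h list, 74 were in wild type at 8 h, 81.3% (71.8 to 88.7), against 92.6% (90.5 to 94.4) with Ikaros. A core of 63 members was listed at 3 and 8 h in both series, 4.64% (3.58 to 5.90), against 18.5% (17.3 to 19.8) of regions with Ikaros. Beside 4 of the 10 strongest it held chr7:54003606-54004357 as the next by z score, with densities of 51.6 and 33.5 in wild type and 16.4 and 25.0 in littermates at 3 and 8 h.

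A group of 99 members, here called transient, was found by both 3 h libraries but by no 8 h library. It made up 7.29% (5.96 to 8.80) of members, against 10.6% (9.61 to 11.6) with Ikaros. After chr2:75558416-75559323, its strongest were chr18:62326360-62327064, with densities at 3 h of 42.8 in wild type and 19.1 in littermates, chr13:73551700-73552441 (40.2 and 13.6), chr5:143711075-143711734 (43.2 and 11.4) and chr12:33963645-33964410 (33.8 and 12.6). Their littermate ranks by density ran from 433 to 1933 among 9999. Counted only over regions in both 3 h lists, the order of the classes was the other way. The group was then 99 of 237 members, and 383 of 1475 regions with Ikaros. Absence at 8 h also depends on the list thresholds. The lowest z score listed in littermates was 8.64 at 3 h but 10.5 at 8 h, and chr5:143711075-143711734 had 8.82 there at 3 h.

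Among the members in no other RelA library, the strongest were chr17:74794814-74795513 (z 27.5, density 33.8), chr6:91692802-91693529 (26.4, 37.4), chr18:39861717-39862441 (26.3, 32.9), chr19:23126020-23126797 (25.5, 30.6) and chr12:114087345-114088053 (25.1, 27.9). Each was above the median of all RelA 3 h hotspots, whose highest density was 18.5, so they were not at the threshold of the wild-type 3 h list.

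Few members were listed before LPS, and the wild-type 0 h list was itself short, with 47 hotspots. Members met 2 of these 47, 4.26%, and regions with Ikaros 35, 74.5%. The 2 members were 0.147% (0.0178 to 0.531), against 0.968% (0.675 to 1.34) with Ikaros and 0.744% of all. Of these, chr7:31895869-31896507 had a density of 14.5 at 0 h and 34.0 at 3 h in wild type and 37.6 at 0 h in littermates, and was in neither 8 h list nor the littermate 3 h list. The other, chr12:5623200-5623572, had low densities of 7.23, 6.42 and 6.24 at 0, 3 and 8 h in wild type. Its z scores were 12.7, 15.3 and 12.7, that at 3 h above the median of 11.0 for members. It lay 697890 bp from the nearest Ikaros hotspot. In littermates 19 members were listed at 0 h, 1.40% (0.844 to 2.18), against 4.40% (3.75 to 5.12) with Ikaros and 3.58% of all.

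Those 19 were dense places in the littermate 0 h library. Their highest density there ran from 9.11 to 61.3 with a median of 28.5, and all 19 were in the densest 5% of that list. This was not particular to members. The 159 regions with Ikaros listed there had a median density of 27.6, at the 98.2 percentile of the list, against 98.4 for the 19. Of the 5805 hotspots of that list, 3561 were below a density of 5. Of the 19, 11 were also listed in littermates at 3 h and 8 were not. The densest, chr8:11460712-11461531, ranked 6th of 5805 at 0 h in littermates with 61.3, had 36.4 and 22.9 in wild type at 3 and 8 h, and was in neither later littermate list. No member was in all 5 other libraries, against 25 regions with Ikaros, and 6 members were in 4. Beside the 3 among the strongest 10 these were chr1:163280977-163281657, chr7:104503591-104504226 and chr11:97183307-97183703. The last had low densities, between 8.65 and 12.9 in the 5 libraries that listed it, although 12.9 ranked 217th of 5805 in littermates at 0 h. These 3 and chr8:11460712-11461531 were chosen after their values were seen.

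Since regions without Ikaros were weaker, the classes were also compared within quintiles of RelA z score. In wild type at 8 h the share listed was lower without Ikaros in 5 of 5 quintiles, from 4.23% against 9.16% in the weakest to 66.3% against 78.1% in the strongest. Weighted to the strength of the members, regions with Ikaros would be listed at 22.1%, which left a difference of -6.00 percentage points (-8.21 to -3.79) of the -20.9. In littermates at 3 h the difference so weighted was -7.90 (-10.2 to -5.56), at 8 h -3.62 (-5.17 to -2.06) and at 0 h -0.786 (-1.55 to -0.0230), each lower in 5 of 5 quintiles. For wild type at 0 h, with 2 members listed, it was -0.108 (-0.332 to 0.115), an interval that holds 0. The littermate 0 h interval also held 0 under 5 of its 8 alternatives, at -0.605 (-1.36 to 0.151) with 10 classes of z score.

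**Figure D3:**
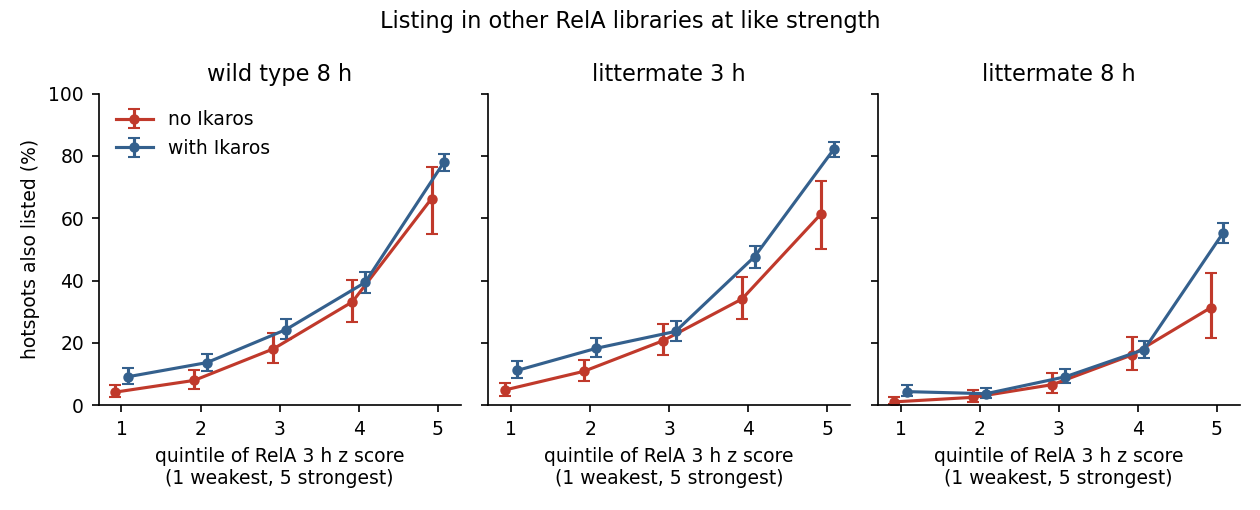
Share of wild-type RelA 3 h hotspots listed in 3 other RelA libraries (percent) by quintile of RelA 3 h z score, without and with Ikaros; points are shares and whiskers 95% exact intervals. Shares rise with strength in both classes, and the strongest quintile stands at 61.4% against 82.1% in littermates at 3 h and 31.3% against 55.4% in littermates at 8 h.

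The strongest quintile spans z scores of 20.6 to 122, and within it members were the weaker ones, with 20 of 83 in its upper part, the highest of 10 classes, against 478 of 912 regions with Ikaros. In that quintile 51 of 83 members were listed in littermates at 3 h, 61.4% (50.1 to 71.9), against 82.1% (79.5 to 84.6) with Ikaros, a difference of -20.7 percentage points (-31.7 to -10.6). At 8 h in littermates it was -24.0 (-33.6 to -12.9). In wild type at 8 h it was -11.8 (-22.8 to -2.14). With 10 classes, the lower and upper part of this quintile gave -17.5 (-30.3 to -4.93) and -6.84 (-28.0 to 3.32) in littermates at 3 h. They gave -14.7 (-24.6 to -2.03) and -15.7 (-36.9 to 3.93) in littermates at 8 h, and -8.12 (-21.1 to 3.92) and -1.82 (-23.0 to 8.49) in wild type at 8 h. With finer classes the wild-type difference among strong regions was thus no longer detectable, nor was any of these 3 differences in the highest class, which holds 20 members. Whether the gap differs between quintiles was not tested. Ikaros was mapped in wild-type cells only, so a littermate region without Ikaros is one where wild-type cells showed none.

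The members were not the regions least often kept. Regions were parted by the times at which Ikaros was listed, a comparison chosen after the values were seen. Those with Ikaros at 3 h but not at 8 h numbered 308, and 22 of them had RelA at 8 h in wild type, 7.14% (4.53 to 10.6), fewer than the 16.1% of members. Weighted to the strength of members their share was 4.68%, so that members stood 11.4 percentage points higher (8.78 to 14.1). In littermates at 8 h members stood 4.77 points higher (2.94 to 6.60), and at 3 h 5.66 points higher (1.77 to 9.56).

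Regions with Ikaros at 8 h and not at 3 h had, at like z score, the highest share of RelA at 8 h of the Ikaros classes. They numbered 928, with a median z of 12.2 against 11.0 for members. Of them 349 had RelA at 8 h in wild type, 37.6% (34.5 to 40.8), or 29.1% at the members' strength, and members minus this class came to -13.0 points (-16.2 to -9.77). In littermates 36.1% (33.0 to 39.3) of them were listed at 3 h, and the 8 h share was 21.9% (19.3 to 24.7). The 2376 regions with Ikaros at both times had 40.7% (38.7 to 42.7) at 8 h in wild type, which came to 21.4% at the members' strength. When presence of Ikaros was judged from its 3 h list alone, the weighted difference for wild type at 8 h turned from -6.00 to 2.40 points (0.273 to 4.52).

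**Figure D4:**
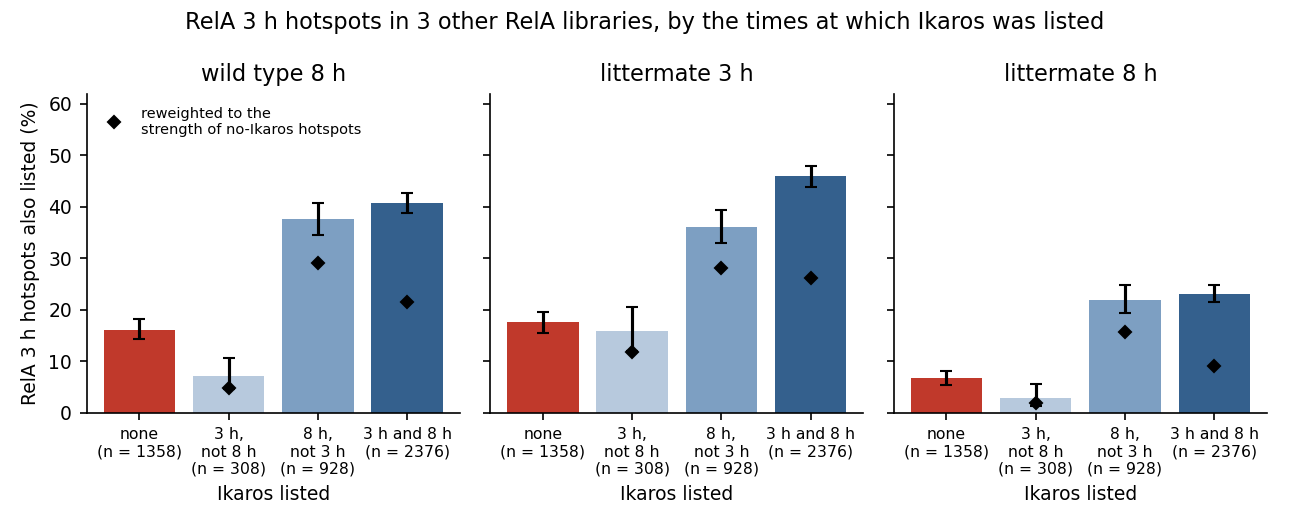
Share of wild-type RelA 3 h hotspots listed in 3 other RelA libraries (percent), by the times at which Ikaros was listed; bars are shares, whiskers 95% exact intervals, and diamonds the share weighted to the z quintiles of hotspots without Ikaros. In wild type at 8 h regions with Ikaros at 3 h alone have the lowest share, 7.14%, below the 16.1% without Ikaros, and those with Ikaros at 8 h and not 3 h have 37.6%.

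Absence of Ikaros from a region did not mean absence from its surroundings. The gap from a member to the nearest Ikaros hotspot of any time had a median of 15.9 kb (13.6 to 17.7), and 564 members, 41.5%, had one within 10 kb. Regions with Ikaros had their next, non-overlapping Ikaros hotspot at a median of 5.77 kb (5.24 to 6.36), with 60.5% within 10 kb. The share within 10 kb was lower for members in each z quintile, at between 37.0% and 47.8% against 56.8% to 65.9%. For 1106 of the 1358 the nearest Ikaros hotspot was one of 8 h, which is also the longest Ikaros list. The next RelA 3 h hotspot lay a median of 56.8 kb (49.5 to 65.2) from a member and 21.9 kb (19.3 to 24.4) from a region with Ikaros.

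Members far from Ikaros were listed again least. Of the 213 members over 100 kb from any Ikaros hotspot, 8.45% (5.09 to 13.0) were in wild type at 8 h, and of the 370 at 1 to 10 kb 21.4% (17.3 to 25.9) were. Of the 194 within 1 kb, 33 were, 17.0%. Median density moved with this gap, from 17.3 at 1 to 10 kb to 12 over 100 kb, and its part in the result was not tested.

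At the limit of the rule, 5 members lay within 10 bp of an Ikaros hotspot, and 1, chr2:84638103-84638592, touched it with a gap of 0 bp. The other 2 closest were chr5:145529586-145529896 and chr9:13631112-13631373, each 2 bp away. On the other side, 36 regions counted as having Ikaros overlapped it by under 100 bp, the least being 6 bp at chr5:123157460-123157804 and chr10:95700900-95701338 and 11 bp at chr7:31208610-31208890. The first of these lies 2354 bp from the member chr5:123154325-123155106 described above. The median overlap of regions with Ikaros was 504 bp. By strength, the weakest members were chr8:114168093-114168346, chr4:132715259-132715510 and chr5:148372223-148372474, with z scores of 8.88, 8.88 and 8.89.

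On the X chromosome 55 of 110 RelA 3 h hotspots had no Ikaros, 50.0% (40.3 to 59.7), against 1302 of 4861 on the autosomes, 26.8% (25.5 to 28.1), and the 1 hotspot on Y had none. Single autosomes ranged from 21.1% on chromosome 14 to 32.4% on chromosome 9. The members on X had a median density of 9.78, below that of members on each autosome, the lowest of which was 13.7. Regions with Ikaros were likewise less dense on X, at 14.0, than on any autosome, the lowest of which was 17.6. With hotspots of density 10 or more the shares were 35.1% (24.5 to 46.8) on X and 25.2% (23.9 to 26.4) on autosomes, and with 15 or more 22.6% (9.59 to 41.1) and 20.7% (19.4 to 22.1). Within the weakest z quintile X stood at 69.2% (52.4 to 83.0) and the autosomes at 44.1% (40.9 to 47.3). In quintiles 2, 3 and 4 the shares on X were 50.0% (29.9 to 70.1), 56.2% (29.9 to 80.2) and 38.5% (13.9 to 68.4). On autosomes they were 34.8%, 26.8% and 20.4%. X was lower only in the strongest quintile, at 6.25% (0.158 to 30.2) against 8.38% (6.72 to 10.3). There 1 of 16 X hotspots lacked Ikaros. Of input hotspots 30.7% lay on X. The other lists were counted here after hotspots that met input were removed, also from the Ikaros lists. X then held 2.21% of RelA 3 h hotspots and 2.01% and 1.97% of Ikaros hotspots at 3 and 8 h. In the littermate RelA lists it held 9.08%, 8.01% and 7.97% at 0, 3 and 8 h. The part of low density or of input background in the share on X was not tested.

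**Figure D5:**
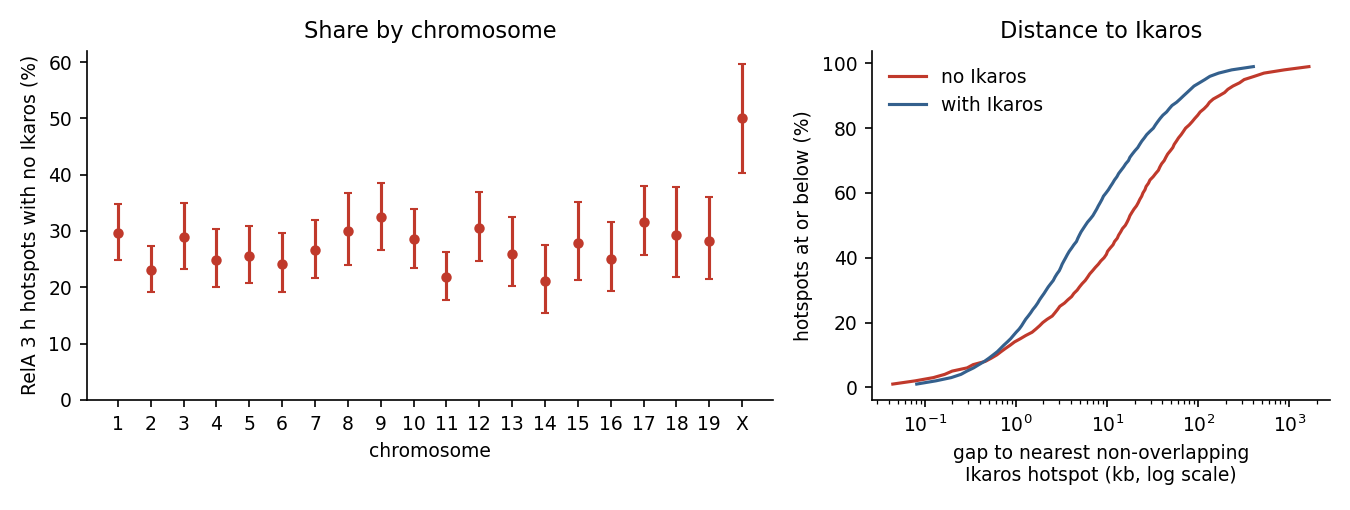
Left, share of wild-type RelA 3 h hotspots without Ikaros on each chromosome (percent, whiskers 95% exact intervals); chromosome Y, with 1 hotspot, is left out. Right, cumulative share of hotspots (percentiles 1 to 99) against the gap to the nearest Ikaros hotspot that does not overlap them (kb, log axis). X stands at 50.0% against 26.8% over the autosomes, and the median gap is 15.9 kb without and 5.77 kb with Ikaros.

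The strongest member on X, chrX:156182465-156183109, was present in 4 of the 6 RelA libraries, with densities of 33.7 and 31.6 in wild type and 19.4 and 14.8 in littermates at 3 and 8 h. In contrast, the member of lowest density, chrX:93016356-93016607, had 0.815 in wild type at 3 h with a z of 9.95, and a hotspot of density 10.8 in littermates at 3 h. Of the 23 members below density 5, 3 were in the littermate 3 h list and none in wild type at 8 h. These regions were chosen after their values were seen.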

How the data were processed

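RelA, Ikaros and input libraries of bone-marrow-derived macrophages were sequenced single-end, and the authors deposited 1 list of hotspots per library, with mm9 and CASAVA named in the submitters' processing notes. Aligner, hotspot caller and threshold, and whether input was subtracted, are not given in these sources. A deposited row holds the highest and mean tag density (a signal of unstated scale), a z score and a p-value, per the file headers. The p-values were not used.

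Of 12 labelled samples in 12 groups, 10 had a file used here, and 2 input samples were not analysed here. Reads per library are unknown. Hotspots meeting wild-type input were removed from each RelA list, and overlap of 1 bp or more counted as shared. For the shares of hotspots on X such hotspots were removed from the Ikaros lists too. Shares carry exact Clopper-Pearson intervals and differences Newcombe intervals. Differences at like strength weight each z quintile by its number of members, with a normal interval. Alternatives changed the overlap, the Ikaros times, the z threshold, a density floor of 10, the strength classes, input removal and the use of sex chromosomes. Gaps run edge to edge, to Ikaros hotspots merged over the 3 times, with order-statistic intervals of the median. Python 3.11.15, numpy 2.4.6, pandas 2.3.3, scipy 1.17.1 and matplotlib 3.10.9 were used. On 2000 simulated regions all 600 planted overlaps were found, as with bedtools 2.31.1.

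The members and lists were chosen with earlier results of these data known. Named regions were the 10 members of highest z, the 5 highest of those kept in both series, of the transient and of the otherwise unlisted members, all members in the wild-type 0 h list, and those nearest the limits of the rule. The gene table at hand is of GRCm38.p6, so no gene, sequence or motif was taken from it.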

Additional observations from a re-analysis of the deposited data

How the results depend on the processing

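Values count as moved when they leave the 95% interval of the main value, or, for a number of regions, change by over 1.5 times. Of 140 alternatives over 19 results, 114 did neither, 24 moved the value and 2 turned its sign. Turned signs were counted only where the main interval left out 0. At like strength the wild-type 0 h difference, -0.108, also changed sign with 10 classes of z score, to 0.0139 (-0.199 to 0.227). The number of regions without Ikaros, 1358, was 2288 with Ikaros at 3 h alone, 2284 with 0 and 3 h, and 514 for z of 12 or more. The share of the list, 27.3%, was 46.0%, 45.9% and 18.2% in these settings, 33.5% with Ikaros at 8 h alone, and 25.0% and 23.4% when a gap of up to 500 or 1000 bp counted as Ikaros. With z of 12 or more the shares of members listed were 32.1% in wild type at 8 h, and 2.53%, 33.3% and 14.6% in littermates at 0, 3 and 8 h. With Ikaros at 3 h alone they were 24.8% in wild type at 8 h and 25.0% and 12.8% in littermates at 3 and 8 h. The differences were then -12.0, -17.5 and -7.90 points and, at like strength, 2.40 in wild type at 8 h, -2.41 in littermates at 3 h and 2.40 at 8 h. The first and last of these 3 turned sign. In that setting regions with Ikaros at 8 h and not at 3 h count as without it. A reciprocal overlap of 50% gave 14.0% of members in littermates at 3 h, and differences of -17.8 in wild type and -11.5 in littermates at 8 h. With input hotspots kept, 0.580% of members were in wild type at 0 h. At like strength, the wild-type 0 h interval no longer held 0 with a density floor of 10, at -0.208 (-0.401 to -0.0147), or with Ikaros at 3 h alone, at -0.331 (-0.551 to -0.111). For littermates at 0 h it came to hold 0 with 10 classes, without X and Y, and with a reciprocal overlap, the centre rule or a 1000 bp gap, at values of -0.727 to -0.567. Of the 80 differences so recomputed, with and without weighting for strength, 77 were below 0 and 67 had an interval below 0. All reuse the same lists, so they are not independent.

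No paired analysis was possible because each group is 1 library with no replicate number. For the same reason no library was left out. Ikaros at 8 h alone, the omission of X and Y, and all alternatives at like strength except other strength classes were chosen after seeing the data. The motif search and its alternative were not run, as no mm9 genome was used here. Read depth is unknown, so absence from a list is not absence of binding.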
